A study of Mus musculus with 17 samples.

Results

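Interleukin 2, the receptor subunits built around the common gamma chain and the STAT5 transcription factors were followed at the RNA level in mouse CD8+ T cells with and without the ubiquitin ligase gene Cblb. The 10 genes are Il2, Il2ra, Il2rb, Il2rg, Il7r, Il15ra, Il21r, Il4ra, Stat5a and Stat5b, taken by symbol from 53679 gene identifiers in the count tables. Each symbol matched 1 Ensembl identifier, and all 10 passed the filter on low counts that left 16246 genes. The 6 groups were Cblb knockout (KO) cells left unstimulated, given anti-CD3 or given anti-CD3 with anti-CD28, and Cblb wild-type (WT) cells in the same 3 states. All came from C57BL/6 mice, and the stimulated cells were cultured for 12 hours. Each group had 3 libraries, except WT cells with both antibodies, which had 2 (replicates 2 and 3). The labels used here do not give the knockout allele, the age or sex of the mice, the organ of origin or the time of the unstimulated cells. They do not say whether replicates came from separate mice. The p-values thus speak only of the spread among these libraries, which may be technical. Where stimulated and unstimulated cells are compared, the antibodies and time in culture cannot be told apart.

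Interleukin 2 is the growth factor that T cells make when the T cell receptor is engaged. Its receptor pairs IL2RB with the common gamma chain IL2RG, and IL2RA (CD25) adds high affinity. The gamma chain also serves the receptors of interleukins 4, 7, 15 and 21, together with IL4RA, IL7R, IL15RA with IL2RB, and IL21R. Ligand binding activates the kinases JAK1 and JAK3, which phosphorylate STAT5A and STAT5B and, for some of these cytokines, other STATs. Cbl-b restrains T cell receptor signalling and is best known for making full activation depend on the costimulatory receptor CD28, which anti-CD28 engages.

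Library totals lay between 16635826 and 38269033 reads, apart from 160059285 in KO unstimulated replicate 2. Cblb spanned 63.9 to 95.9 CPM (counts scaled to a common library total) over the KO libraries and 139.5 to 190.1 CPM over the WT libraries, and it was called lower in KO cells in all 3 states. Summed markers of CD8 T cells were at 1505 to 2948 CPM, against 25.6 to 49.8 CPM for CD4 and regulatory T cells, 5.16 to 27.2 for B cells, 2.23 to 11.3 for myeloid and dendritic cells, 0.626 to 4.53 for natural killer cells and 0.24 to 4.12 for erythroid cells. Single genes made up most of some sums. Ikzf2 had group means of 26.1 to 38.3 CPM, while those of Cd4 were at most 0.123 CPM. Cd79b led the B cell sum and Itgax the myeloid and dendritic sum. The libraries also differed in how counts followed the GC content of genes. This GC trend, the median log2 deviation of protein-coding genes with at least 56% GC minus that of genes with at most 40% GC, moved with the groups. It lay between 0.161 and 1.201 in KO and between −0.765 and −0.323 in WT unstimulated libraries, and between 0.111 and 0.263 in KO and between −0.426 and −0.116 in WT libraries with anti-CD3. With both antibodies it lay between −1.17 and 0.365 in KO and at 0.532 and 0.581 in WT libraries. Il2 and Il7r have low GC contents of 39.4% and 40.6%, Il2ra has 44.5%, Il2rg 48.6% and Il15ra 49.2%, while Stat5b, Il2rb, Il21r, Il4ra and Stat5a lie between 54.4% and 56.4%. Fold changes are therefore also given, where call or size differs, from a fit in which the trend of each library was removed (GC-corrected). How much of any difference belongs to the GC trend was not tested.

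Stimulated Cblb-deficient cells held more RNA for Il2 and its high-affinity subunit Il2ra than stimulated WT cells, whether or not anti-CD28 was present. They also held less RNA for Il7r, which with anti-CD3 alone was called with and without GC correction. With both antibodies the lower Il7r was called GC-corrected (edgeR, adjusted p = 0.00183) but not without correction (0.294). In bulk RNA, more expressing cells and more RNA per cell cannot be told apart. Genes were called at an adjusted p under 0.05 (edgeR, Benjamini-Hochberg over all genes). KO and WT libraries did not overlap for 41.3% of all genes in unstimulated cells, 45% with anti-CD3 and 49% with both antibodies. Lack of overlap is thus common. With anti-CD3 alone, 7 of the 10 genes were called higher in KO cells, against 10.5% of the 16246 genes tested, and 1 was called lower, against 4.8%. The median log2 fold change of the 10 was 0.51, against 0.04 for all genes. GC-corrected, 6 were called higher and 2 lower, against 11.2% and 11.6% of all genes, and the medians were 0.28 and −0.04.

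With both antibodies, 3 of the 10 genes (Il2, Il2ra and Il15ra) were called higher in KO cells and 1 (Stat5b) lower, against 9.84% and 6.3% of all genes. GC-corrected, these were 4 and 2, with Il2rb added to the higher and Il7r to the lower ones, against 9.82% and 7.92% of all genes. In unstimulated cells 6 were called higher and 1 lower in KO cells, against 15.3% and 10.1% of all genes. GC-corrected, 3 (Il2rb, Il15ra and Il4ra) were called higher and 0 lower, against 2.85% and 2.87% of all genes. Of the 10 genes, Il15ra alone was called higher in KO cells in all 3 states by both fits. The numbers of genes called in either direction, 4134 in unstimulated cells, 2492 with anti-CD3 and 2621 with both antibodies, were 348 without KO unstimulated replicate 2, 853 without KO anti-CD3 replicate 3, and only 11 in the both-antibody comparison without replicate 3 of the WT cells.

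**Figure D1:**
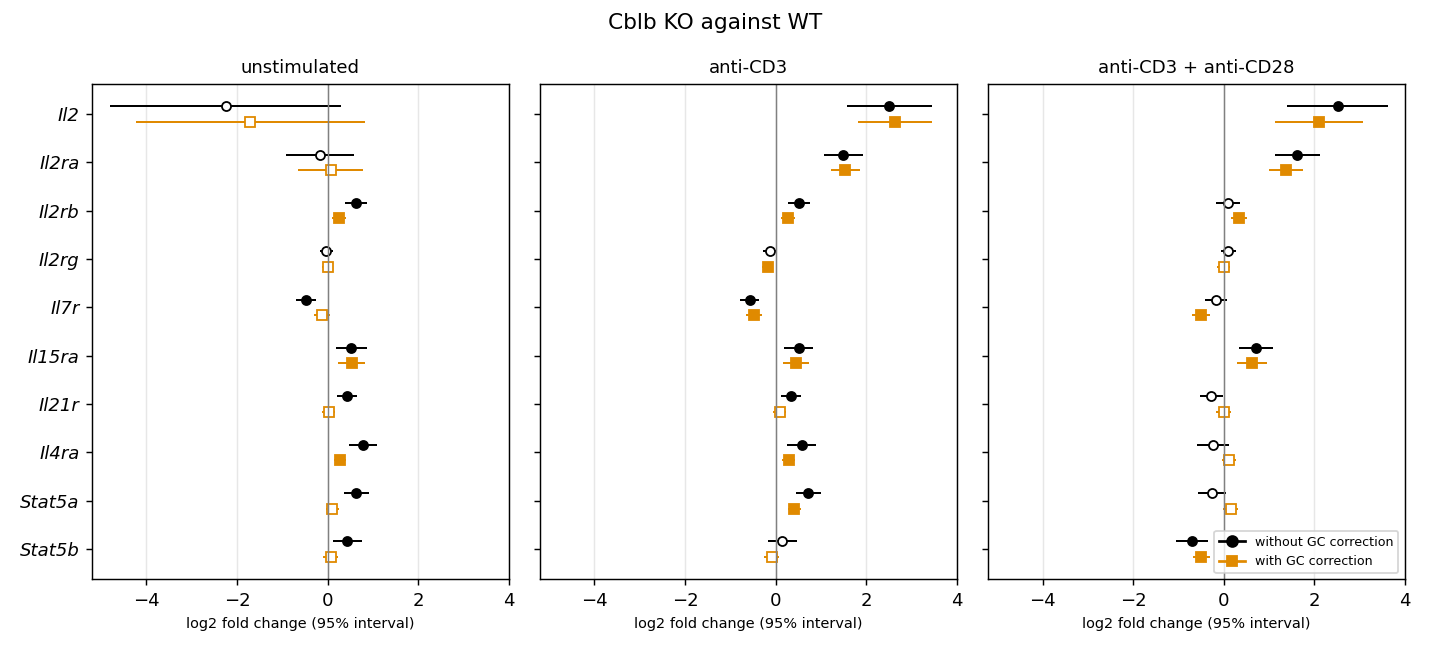
Log2 fold change of KO over WT cells with its 95% interval (horizontal axis) for the 10 genes (rows) in the 3 states (panels), without GC correction (black circles) and with it (orange squares); filled symbols mark an adjusted p under 0.05. Il2 and Il2ra stand at 2.51 and 1.496 with anti-CD3 and at 2.52 and 1.63 with both antibodies, whereas the squares of Il21r lie at 0.03, 0.09 and 0.00 in the 3 states.

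Il2 (ENSMUSG00000027720) lies at chr3:37120523-37125959 on the minus strand of GRCm38, and its nearest annotated neighbour on the right is Il21, another cytokine gene of the family, 96800 bases away. The 250 bases before its RefSeq start site (GRCm38.p6, chr3:37125955-37126204, minus strand) are shown because Il2 had the largest fold changes between KO and WT cells of the set. Capitals mark matches to GGAAA or its complement TTTCC, the core bound by NFAT factors, which calcium signalling from the T cell receptor activates.
Il2: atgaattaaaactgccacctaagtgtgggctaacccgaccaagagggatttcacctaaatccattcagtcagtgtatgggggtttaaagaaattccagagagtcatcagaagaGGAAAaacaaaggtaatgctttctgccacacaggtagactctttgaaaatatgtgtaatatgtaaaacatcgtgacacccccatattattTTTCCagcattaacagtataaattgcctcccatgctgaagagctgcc
The matches begin at positions -137 and -47 from the start site. Both strands were searched, and 61.3% of 32851 promoter windows of 300 bases hold this short core, so it is common.

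Il2 was barely detectable before stimulation. The 3 KO unstimulated libraries held 2, 4 and 0 Il2 reads (0.112, 0.0264 and 0 CPM), against 1, 10 and 2 reads in the 3 WT unstimulated libraries (0.0324, 0.38 and 0.113 CPM). These ranges overlapped, and the 0 reads allow a level of up to 0.194 CPM in that library (3 counts, counting error only). With anti-CD3, Il2 stood at 11.4, 16.2 and 18.4 CPM in KO libraries, against 1.76, 3.51 and 2.59 CPM in WT libraries. With anti-CD28 added it stood at 6.38, 16.4 and 25.1 CPM in KO libraries, against 3.12 and 2.45 CPM in WT libraries. Every stimulated KO library was above every stimulated WT library, and the 3 KO libraries with both antibodies spread most.

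Il2 was 5.71-fold higher in KO than in WT cells with anti-CD3 (log2 fold change 2.51, SE 0.44, adjusted p = 0.00168) and 5.73-fold higher with both antibodies (2.52, SE 0.52, adjusted p = 0.00842). These were the 62nd and 87th highest fold changes of the 16246 genes. GC-corrected, the log2 values were 2.64 and 2.11, both called. The anti-CD3 call held in every fit tried. With both antibodies the adjusted p was 0.091 without WT both-antibody replicate 2 and 0.115 without replicate 3, at log2 values of 2.68 and 2.36, and 0.23 with only the groups compared. In unstimulated cells the log2 fold change of −2.25 (95% interval −4.79 to 0.29, adjusted p = 0.172) was not called, and it rests on 6 KO and 13 WT reads in all.

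Pooled over libraries, the Il2 level of KO cells was 492-fold higher with anti-CD3 than without stimulation (95% counting interval 225 to 1342), and 486-fold higher with both antibodies (223 to 1329). In WT cells the same ratios were 16.3 (9.38 to 31.2) and 16.0 (8.95 to 30.9). The pooled KO unstimulated level of 0.0325 CPM rests mostly on replicate 2, the library of 160059285 reads, which held 4 of the 6 Il2 reads. Its level was 0.0264 CPM, against 0.112 CPM in replicate 1 and 0 CPM in replicate 3. The intervals cover counting error only, and with so few reads in unstimulated cells the fitted log2 changes of 8.68 and 8.73 in KO and 3.91 and 3.96 in WT cells depend on the small count the model adds. All 4 increases were called.

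Il2ra (ENSMUSG00000026770, chr2:11642807-11693193, plus strand) encodes CD25, the subunit that turns the interleukin 2 receptor into its high-affinity form, and is followed 12097 bases downstream by Il15ra on the same strand. Its promoter is shown beside that of Il2 because both genes were called higher in every stimulated group. The interval is chr2:11642542-11642791 (RefSeq, GRCm38.p6, plus strand), and capitals mark the same core.
Il2ra: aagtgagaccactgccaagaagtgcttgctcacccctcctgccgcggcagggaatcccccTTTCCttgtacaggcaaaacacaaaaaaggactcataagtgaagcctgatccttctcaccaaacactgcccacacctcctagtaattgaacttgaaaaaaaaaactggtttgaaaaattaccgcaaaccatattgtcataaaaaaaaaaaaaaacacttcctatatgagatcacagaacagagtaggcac
The match begins at position -190. Neither 300-base window holds the AP-1 motif TGANTCA, which 7.8% of all windows hold, or the STAT5 palindrome TTCNNNGAA, which 8.3% hold; this says only that these letters are not in these windows.

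Unstimulated libraries held little Il2ra, with 0.842, 0.833 and 1.68 CPM in KO cells, against 1.49, 0.836 and 0.849 CPM in WT cells. With anti-CD3 it stood at 122, 131 and 166 CPM in KO libraries, against 51.9, 46.9 and 50.3 CPM in WT libraries. In the both-antibody state it stood at 98.9, 122 and 180 CPM in KO libraries, against 41.3 and 45.2 CPM in WT libraries. The unstimulated groups overlapped, and the lowest stimulated KO library was above the highest stimulated WT library.

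Il2ra was 2.82-fold higher in KO than in WT cells with anti-CD3 (log2 1.496, SE 0.20, adjusted p = 0.000262) and 3.09-fold higher with both antibodies (1.63, SE 0.24, adjusted p = 0.00222). GC-corrected, the log2 values were 1.54 and 1.38, both called. With both antibodies the adjusted p was 0.0596 without WT both-antibody replicate 2, 0.0632 without replicate 3 and 0.215 with only the groups compared. Unstimulated cells showed a log2 difference of −0.17 (95% interval −0.93 to 0.59, adjusted p = 0.761). Against unstimulated cells, Il2ra was 143-fold higher in KO cells with anti-CD3 and 137-fold higher with both antibodies, and 45.2-fold and 39.3-fold higher in WT cells. These stood at ranks 24 and 21 from the highest in KO cells and at ranks 35 and 48 in WT cells. Per kilobase of exon, Il2ra had the second lowest mean of the 10 genes in both unstimulated groups, and in KO cells with anti-CD3 its mean of 24.5 CPM per kilobase was above the 22.8 of Stat5b.

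**Figure D2:**
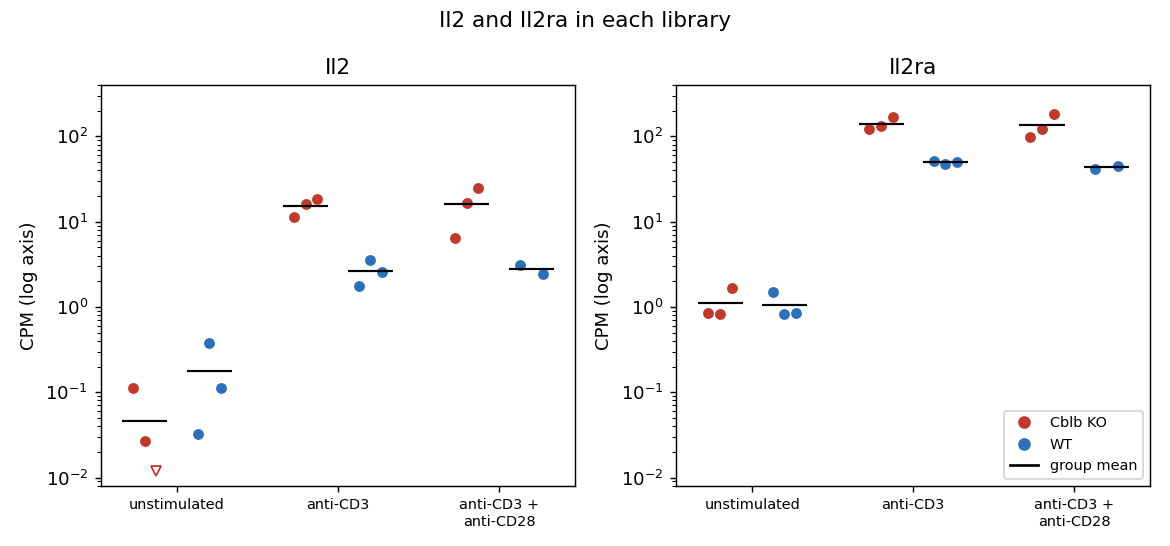
CPM on a log axis of Il2 (left) and Il2ra (right) in each library (points) by genotype and state, with group means as bars; the open triangle marks the KO unstimulated library with 0 Il2 reads and has no height of its own. The stimulated KO libraries lie between 6.38 and 25.1 CPM for Il2 and between 98.9 and 180 CPM for Il2ra, all above the stimulated WT libraries.

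Il2rb (ENSMUSG00000068227, chr15:78479256-78495271, minus strand) encodes the signalling subunit shared by the receptors of interleukins 2 and 15. Unstimulated KO libraries held 395, 454 and 394 CPM, against 224, 314 and 264 CPM in WT libraries. With anti-CD3, KO libraries held 282, 278 and 323 CPM, against 219, 201 and 197 CPM in WT libraries. With both antibodies, KO libraries held 277, 260 and 222 CPM, against 246 and 227 CPM in WT libraries. KO and WT ranges were apart in the first 2 states and overlapped with both antibodies. All KO libraries were above all WT libraries for 21.9% of all genes unstimulated and 27.4% with anti-CD3.

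Il2rb was higher in KO cells without stimulation (log2 0.63, SE 0.12, adjusted p = 0.00592) and with anti-CD3 (0.52, SE 0.12, adjusted p = 0.00691). The anti-CD3 call was lost without KO anti-CD3 replicate 3 (adjusted p = 0.0547). With both antibodies the value was 0.10 (−0.18 to 0.37, adjusted p = 0.648). GC-corrected, the 3 log2 values were 0.26, 0.28 and 0.34, and all were called. Against unstimulated cells Il2rb fell by 0.50 on the log2 scale in KO and by 0.38 in WT cells with anti-CD3, and by 0.72 in KO cells with both antibodies, while the change of −0.18 in WT cells with both antibodies was not called. GC-corrected, these 4 values were −0.41, −0.42, −0.40 and −0.48, all called. The call in WT cells with anti-CD3 was lost without any 1 of 4 libraries, replicates 2 and 3 of WT anti-CD3 and of WT unstimulated cells (adjusted p between 0.0526 and 0.162).

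Il2rg (ENSMUSG00000031304, chrX:101264378-101268255, minus strand), the gene of the common gamma chain itself, had a narrow range of 352 to 378 CPM over the 9 KO libraries and 337 to 405 CPM over the 8 WT libraries. KO libraries were all below WT libraries with anti-CD3 and all above them with both antibodies, as for 17.6% and 24.6% of all genes. The KO minus WT log2 differences were −0.03 (−0.18 to 0.12) in unstimulated cells, −0.12 (−0.27 to 0.03) with anti-CD3 and 0.10 (−0.06 to 0.27) with both antibodies, and none was called. GC-corrected, the anti-CD3 value was −0.17 and called lower (adjusted p = 0.0395), as it also was by DESeq2 (adjusted p = 0.0322). By voom, Il2rg was called higher in KO cells with both antibodies (0.16, adjusted p = 0.00101), where the GC-corrected value was 0.00. Il2rg shares 728 exonic bases on the same strand with the annotated gene Gm20489, whose median count was 0. Per kilobase, Il2rg and Il7r were the most abundant of the 10 genes in every group, with group means of 142 to 163 and 126 to 220 CPM per kilobase.

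Ratios within each library describe the make-up of the interleukin 2 receptor RNA. Il2rb per kilobase stood at 0.633 ± 0.0397 of Il2rg in KO and 0.402 ± 0.0812 in WT unstimulated libraries (SD, n = 3 each), and at 0.460 ± 0.0437 in KO and 0.296 ± 0.00623 in WT libraries with anti-CD3 (n = 3 each). The both-antibody ratios were 0.388 ± 0.0475 in KO (n = 3) and 0.389 ± 0.0202 in WT libraries (n = 2). Il2ra per kilobase stood at 0.164 ± 0.0295 of Il2rg in KO and 0.0536 ± 0.00308 in WT libraries with anti-CD3 (n = 3 each), and at 0.154 ± 0.0490 in KO (n = 3) and 0.0535 ± 0.00369 in WT libraries with both antibodies (n = 2). Group means of Il2ra thus stayed below those of Il2rb and Il2rg in all stimulated groups. The Il2rb ratio carries the GC trend of that gene.

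**Figure D3:**
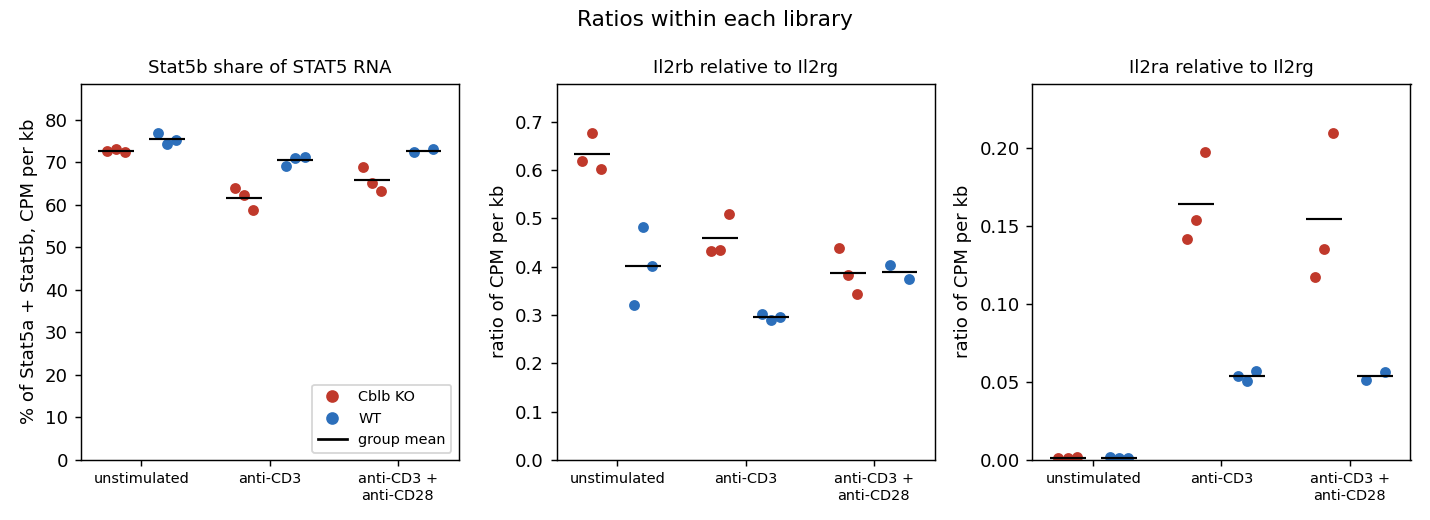
Ratios within each library (points) by genotype and state, with group means as bars: the share of Stat5b in Stat5a plus Stat5b, and Il2rb and Il2ra relative to Il2rg, all on CPM per kilobase of exon. The share of Stat5b is 58.8% to 63.9% in KO cells with anti-CD3 and 69.1% to 71.3% in WT cells, and Il2ra relative to Il2rg is at least 0.117 in every stimulated KO library and at most 0.0567 in every stimulated WT library.

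Il7r (ENSMUSG00000003882, chr15:9505788-9530176, minus strand) encodes the receptor subunit for interleukin 7, the survival factor of naive and memory T cells. Its RefSeq promoter window is shown because it is the only window at hand for the 10 genes that holds the STAT5 palindrome TTCNNNGAA. The interval is chr15:9529877-9530126 (RefSeq, GRCm38.p6, minus strand). It lies within the gene span given above, which on this strand begins at 9530176. The annotations thus differ in the start, and these bases precede only the RefSeq start site. Capitals mark that palindrome at position -142 and a GGAAA core at position -121.
Il7r: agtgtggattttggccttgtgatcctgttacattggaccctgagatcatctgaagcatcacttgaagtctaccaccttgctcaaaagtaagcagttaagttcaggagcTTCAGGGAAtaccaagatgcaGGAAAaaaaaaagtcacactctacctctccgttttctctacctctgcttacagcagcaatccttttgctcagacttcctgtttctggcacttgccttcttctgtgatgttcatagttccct
RefSeq windows were at hand for 9 of the 10 genes, 12 windows in all, and a match is a description, not a binding site.

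Il7r was lower in KO libraries than in WT libraries in each state. Unstimulated KO libraries held 659, 515 and 594 CPM, against 851, 809 and 801 CPM in WT libraries. With anti-CD3, KO libraries held 709, 752 and 610 CPM, against 954, 1021 and 1105 CPM in WT libraries. With both antibodies, KO libraries held 718, 805 and 829 CPM, against 918 and 854 CPM in WT libraries. The ranges did not overlap in any state, and without GC correction the log2 gap was widest with anti-CD3.

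The KO minus WT log2 difference of Il7r was −0.57 with anti-CD3 (SE 0.10, adjusted p = 0.00148) and −0.48 GC-corrected, and it kept its call in every fit tried. The unstimulated difference of −0.48 (adjusted p = 0.00834) was −0.12 GC-corrected (adjusted p = 0.482), and it lost its call without KO unstimulated replicate 2, the library with the highest GC trend (adjusted p = 0.0562). The difference with both antibodies was −0.18 (adjusted p = 0.294), and −0.50 GC-corrected (adjusted p = 0.00183). Of the alternatives other than leaving out 1 library, 2 called it lower, GC correction among them. Il7r RNA was not called lower in stimulated than in unstimulated cells of either genotype by either fit. In WT cells it was higher with anti-CD3 than without (log2 0.32, adjusted p = 0.0284, and 0.32 GC-corrected), a call lost without any 1 of 4 libraries, replicates 2 and 3 of WT anti-CD3 and of WT unstimulated cells (adjusted p between 0.0682 and 0.12). In KO cells with both antibodies it was higher by 0.41 (adjusted p = 0.00389), and −0.03 GC-corrected (adjusted p = 0.808); the call was also lost without the 2 libraries of extreme GC trend (0.26, adjusted p = 0.0655) and with only the groups compared (0.0522). In WT cells with both antibodies it stood at 0.11 (adjusted p = 0.479), and at 0.35 GC-corrected and called (adjusted p = 0.00852).

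Il15ra (ENSMUSG00000023206, chr2:11705290-11734317, plus strand) encodes the subunit that binds interleukin 15 with high affinity and can present it to neighbouring cells. KO unstimulated libraries held 8.65, 10.3 and 14.3 CPM, against 7.33, 7.98 and 7.58 CPM in WT libraries. With anti-CD3, KO libraries held 14.9, 14.6 and 17.9 CPM, against 11.5, 10.9 and 11.02 CPM in WT libraries. With both antibodies, KO libraries held 14.3, 16.6 and 18.5 CPM, against 9.61 and 10.5 CPM in WT libraries. KO libraries were above WT libraries in each state without overlap, as for 21.9%, 27.4% and 24.6% of all genes. The KO unstimulated libraries of Il15ra spread most. Per kilobase it had the lowest mean of the receptor genes in the 4 stimulated groups, 2.26 to 3.70 CPM per kilobase.

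The KO minus WT log2 differences of Il15ra were 0.53 without stimulation (adjusted p = 0.0244), 0.51 with anti-CD3 (0.0344) and 0.71 with both antibodies (0.0173), and GC-corrected 0.53, 0.45 and 0.62, all called. Each of these calls was lost in some fits without 1 library. They were, for the unstimulated call, KO unstimulated replicate 2 or 3 and WT unstimulated replicate 1 or 3 (adjusted p between 0.0546 and 0.0955). For the anti-CD3 call they were KO anti-CD3 replicate 1 or 3, any WT anti-CD3 replicate, WT both-antibody replicate 2 and WT unstimulated replicate 1 (0.0534 to 0.196). For the both-antibody call they were KO both-antibody replicate 3 and either WT both-antibody replicate (0.0594 to 0.164). The unstimulated call was also lost by voom (0.32, adjusted p = 0.111) and with only the groups compared (0.062), the anti-CD3 call with relative log expression scaling (0.0522), and the both-antibody call with only the groups compared (0.23).

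Il15ra rose with anti-CD3 by 0.53 on the log2 scale in KO and 0.55 in WT cells, and with both antibodies by 0.58 in KO cells. The 0.40 of WT cells with both antibodies was not called (adjusted p = 0.0917) but was GC-corrected (0.46, adjusted p = 0.0297), by voom (0.0231), with only the groups compared (0.0389) and without KO unstimulated replicate 3 (0.0457). The both-antibody call in KO cells was lost without the 2 libraries of extreme GC trend (0.42, adjusted p = 0.0983) and with only the groups compared (0.0753). The anti-CD3 call was lost in KO cells without KO anti-CD3 replicate 3 or KO unstimulated replicate 1 or 2 (adjusted p between 0.0575 and 0.0963), and in WT cells without replicate 1 of WT anti-CD3 or WT unstimulated cells (0.0522 and 0.0594).

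Il21r (ENSMUSG00000030745, chr7:125603429-125633570) and Il4ra (ENSMUSG00000030748, chr7:125552120-125579474) encode the receptor subunits for interleukins 21 and 4 and are neighbours on the plus strand, 23955 bases apart. Il21r stood at 152, 177 and 149.5 CPM in KO libraries and 107, 121 and 127 CPM in WT libraries without stimulation. With anti-CD3 it stood at 92.8, 89.9 and 109.6 CPM in KO libraries, against 75.8, 80.5 and 74.5 CPM in WT libraries, and with both antibodies at 87.9, 78.5 and 69.7 CPM in KO libraries, against 91.4 and 98.7 CPM in WT libraries. KO libraries were above WT libraries in the first 2 states and below them in the last, without overlap. Of all genes, 21.9%, 27.4% and 24.4% showed this in the same states. The log2 differences were 0.43 (adjusted p = 0.0115), 0.34 (0.0367) and −0.27 (0.115), but GC-corrected 0.03, 0.09 and 0.00, with none called. The both-antibody value was called lower by voom (−0.28, 0.000163) and without KO both-antibody replicate 1 (−0.36, 0.0245). The unstimulated call was lost without KO unstimulated replicate 2 (0.0771) or WT unstimulated replicate 1 (0.068), and the anti-CD3 call in 11 of the 17 fits without 1 library (0.0504 to 0.222), with relative log expression scaling (0.0618) and with a filter of 1 CPM in 3 libraries (0.0522).

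Il21r was lower in stimulated than in unstimulated cells by both fits. With anti-CD3 it fell by 0.71 on the log2 scale in KO and by 0.62 in WT cells, and with both antibodies by 1.02 in KO and by 0.32 in WT cells. GC-corrected, the 4 values lay between −0.67 and −0.60, and all were called. In WT cells with both antibodies the uncorrected call was lost in 10 of the 17 fits without 1 library (adjusted p between 0.0537 and 0.25).

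Il4ra stood at 265, 356 and 246 CPM in KO and 149, 182 and 175 CPM in WT unstimulated libraries, and at 244, 241 and 285 CPM in KO and 175, 172 and 170.0 CPM in WT libraries with anti-CD3. With both antibodies it stood at 246, 205 and 157 CPM in KO libraries, against 247 and 229 CPM in WT libraries, and only there did the ranges overlap. The KO minus WT log2 differences were 0.78 (adjusted p = 0.00661) in unstimulated cells, 0.57 (0.015) with anti-CD3 and −0.23 (0.342) with both antibodies. GC-corrected they were 0.28, 0.29 and 0.12, with the first 2 called. The anti-CD3 call was lost without KO anti-CD3 replicate 3 or WT anti-CD3 replicate 2 or 3 (0.0546 to 0.0977). The changes of Il4ra with both antibodies, −0.51 in KO and 0.50 in WT cells, were called only without GC correction and were −0.07 and 0.10 with it. The KO change lost its call without KO unstimulated replicate 2 (0.0765), without both libraries of extreme GC trend (−0.20, 0.179) and with only the groups compared (0.0978), and the WT change without WT unstimulated replicate 1 or either library of WT cells with both antibodies (0.0842 to 0.168).

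Stat5a (ENSMUSG00000004043, chr11:100859351-100885169, plus strand) and Stat5b (ENSMUSG00000020919, chr11:100780731-100850724, minus strand) encode the closely related factors that carry interleukin 2 and interleukin 7 signals to the nucleus. They lie 8627 bases apart, and their exons share 265 windows of 100 identical bases, 3.44% of the windows of Stat5a and 4.79% of those of Stat5b, within which reads cannot be told apart. Stat5a also shares 72 exonic bases with Stat3 on the opposite strand, and the strand setting of the counting is not given in the sources used here.

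Stat5a stood at 74.5, 84.7 and 67.4 CPM in KO and 41.6, 51.1 and 53.5 CPM in WT unstimulated libraries. With anti-CD3 it stood at 95.8, 94.6 and 114 CPM in KO libraries, against 68.2, 59.7 and 56.9 CPM in WT libraries, and with both antibodies at 82.4, 70.5 and 57.8 CPM in KO libraries, against 81.8 and 85.3 CPM in WT libraries. KO and WT overlapped only with both antibodies. The KO minus WT log2 differences were 0.64 (adjusted p = 0.00725), 0.72 (0.00164) and −0.25 (0.239), and GC-corrected 0.11 (not called), 0.41 (called) and 0.15 (not called). With both antibodies Stat5a was called lower in KO cells by voom (−0.25, adjusted p = 0.00173) and without KO both-antibody replicate 1 (−0.38, 0.0438). The anti-CD3 call held in every fit tried, and the unstimulated call was lost without KO unstimulated replicate 2 (0.0507).

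Stat5a was higher with anti-CD3 than without in KO cells by 0.42 on the log2 scale (adjusted p = 0.0172), and by 0.62 GC-corrected. The KO call was lost without KO anti-CD3 replicate 3 or KO unstimulated replicate 1 or 3 (0.0712 to 0.0967). In WT cells the anti-CD3 value was 0.34 (adjusted p = 0.0719), and 0.32 GC-corrected and called; it was also called by DESeq2, by voom, with only the groups compared and without KO both-antibody replicate 1 or 3 (0.0113 to 0.0494). With both antibodies the value was −0.11 in KO cells (adjusted p = 0.523) and 0.78 in WT cells (adjusted p = 0.000735), and GC-corrected 0.38 in KO and 0.34 in WT cells, both called.

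Stat5b stood at 154, 179 and 138 CPM in KO and 108, 115 and 126 CPM in WT unstimulated libraries, and at 131, 121 and 126 CPM in KO and 118, 114 and 109.8 CPM in WT libraries with anti-CD3. With both antibodies it stood at 142, 102 and 77.6 CPM in KO libraries, against 166 and 180.2 CPM in WT libraries. No state showed overlap between KO and WT, as for 41.3%, 45% and 49% of all genes, and the order was turned round with both antibodies. There Stat5b was the only one of the 10 genes called lower in KO cells by both fits (log2 −0.69, adjusted p = 0.0145, and −0.49 GC-corrected, adjusted p = 0.00119). That call was lost without KO both-antibody replicate 2 (0.0509) or WT both-antibody replicate 2 or 3 (0.0899 and 0.134), and with only the groups compared (0.24). With anti-CD3 the difference was 0.15 (−0.17 to 0.47, adjusted p = 0.561). In unstimulated cells it was 0.44 (adjusted p = 0.0445), which was 0.07 GC-corrected and lost its call in 14 of the 17 fits without 1 library (0.0545 to 0.213).

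With anti-CD3 Stat5b changed by −0.32 in KO cells relative to unstimulated cells (adjusted p = 0.112), and by −0.23 GC-corrected and called (0.0226). This KO change was called lower in 2 fits without 1 library and in 3 other alternatives, GC correction among them. In WT cells the anti-CD3 change was −0.03 (adjusted p = 0.922), and −0.08 GC-corrected (0.458). With both antibodies Stat5b changed by −0.55 in KO and 0.58 in WT cells relative to unstimulated cells, both called, and by −0.28 and 0.28 GC-corrected, both called. The WT call was lost without WT unstimulated replicate 1 or either library of WT cells with both antibodies (adjusted p between 0.0561 and 0.108). The KO call was lost without the 2 libraries of extreme GC trend, at a change of −0.28 (adjusted p = 0.0872), and with only the groups compared (0.0964). The balance between the 2 STAT5 genes was also read within libraries. Per kilobase, Stat5b made up 72.8% ± 0.327 of Stat5a plus Stat5b in KO and 75.5% ± 1.35 in WT unstimulated libraries (SD, n = 3 each), and 61.6% ± 2.60 in KO and 70.5% ± 1.24 in WT libraries with anti-CD3 (n = 3 each). With both antibodies it made up 65.8% ± 2.84 in KO (n = 3) and 72.7% ± 0.529 in WT libraries (n = 2). Stat5b was the more abundant in all 17 libraries, and the KO share lay below the WT share in each state without overlap. The ratio shows unequal change, not which gene moved.

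**Figure D4:**
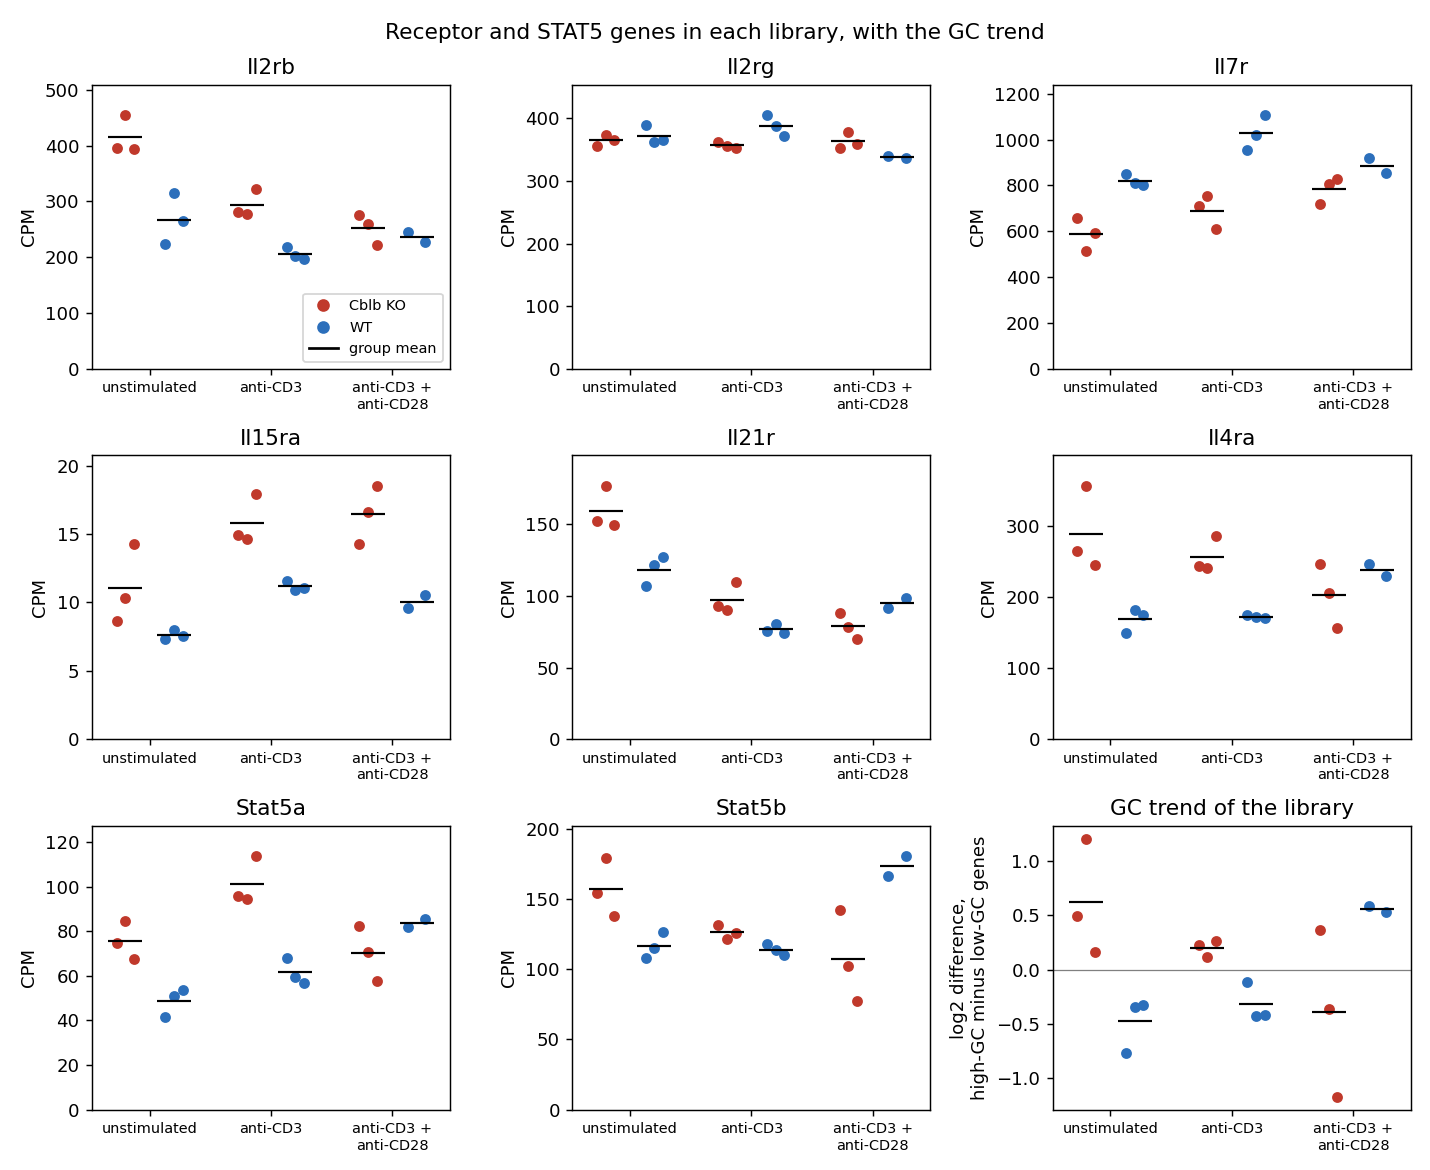
CPM (from 0) of the 8 genes other than Il2 and Il2ra in each library (points) by genotype and state, with group means as bars, and in the last panel the GC trend of the same libraries (log2). Il2rg stays between 337 and 405 CPM, Il7r is lower in KO than in WT libraries in each state, and Il21r and Stat5b are higher in KO libraries in the first 2 states and lower with both antibodies, where the GC trend of the WT libraries is 0.532 and 0.581.

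Across the set, Il2 and Il2ra were called higher in stimulated than in unstimulated cells of both genotypes with either treatment, and Il21r was called lower in all 4 comparisons. The time of the unstimulated cells is not given, so time in culture cannot be told apart from the antibodies here. With anti-CD3, 4 of the 10 genes were called higher and 2 lower in KO cells, against 19.6% and 17.3% of all genes, and 4 higher and 2 lower in WT cells, against 11.3% and 13.1%. With both antibodies, 4 were called higher and 4 lower in KO cells, against 23% and 22.5% of all genes, and 5 higher and 1 lower in WT cells, against 17.8% and 16.3%. GC-corrected, 7 genes were called in KO and 7 in WT cells with anti-CD3, against 44.1% and 34.4% of all genes, and 7 in KO and 8 in WT cells with both antibodies, against 43.7% and 32.4%. Summed markers of CD8 T cells moved in the same comparisons, at 1505 to 1593 CPM in KO and 1621 to 1633 CPM in WT libraries with anti-CD3, against 2721 to 2948 CPM in KO and 2579 to 2672 CPM in WT unstimulated libraries. Markers of B cells stood at 8.07 to 9.54 CPM in KO and 6.95 to 9.39 CPM in WT libraries with anti-CD3, against 19.0 to 27.2 CPM in KO and 17.1 to 19.9 CPM in WT unstimulated libraries. Those of myeloid and dendritic cells stood at 2.62 to 3.32 CPM in KO and 3.18 to 4.49 CPM in WT libraries, against 8.25 to 11.3 CPM in KO and 5.60 to 7.11 CPM in WT unstimulated libraries, and those of natural killer cells at 0.900 to 1.23 CPM in KO and 0.626 to 1.91 CPM in WT libraries, against 3.51 to 4.27 CPM in KO and 3.18 to 4.53 CPM in WT unstimulated libraries. With both antibodies these 3 lists also lay below the unstimulated ranges in both genotypes. The part of any of these markers in the falls of Il2rb and Il21r, or in the other changes, was not tested.

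**Figure D5:**
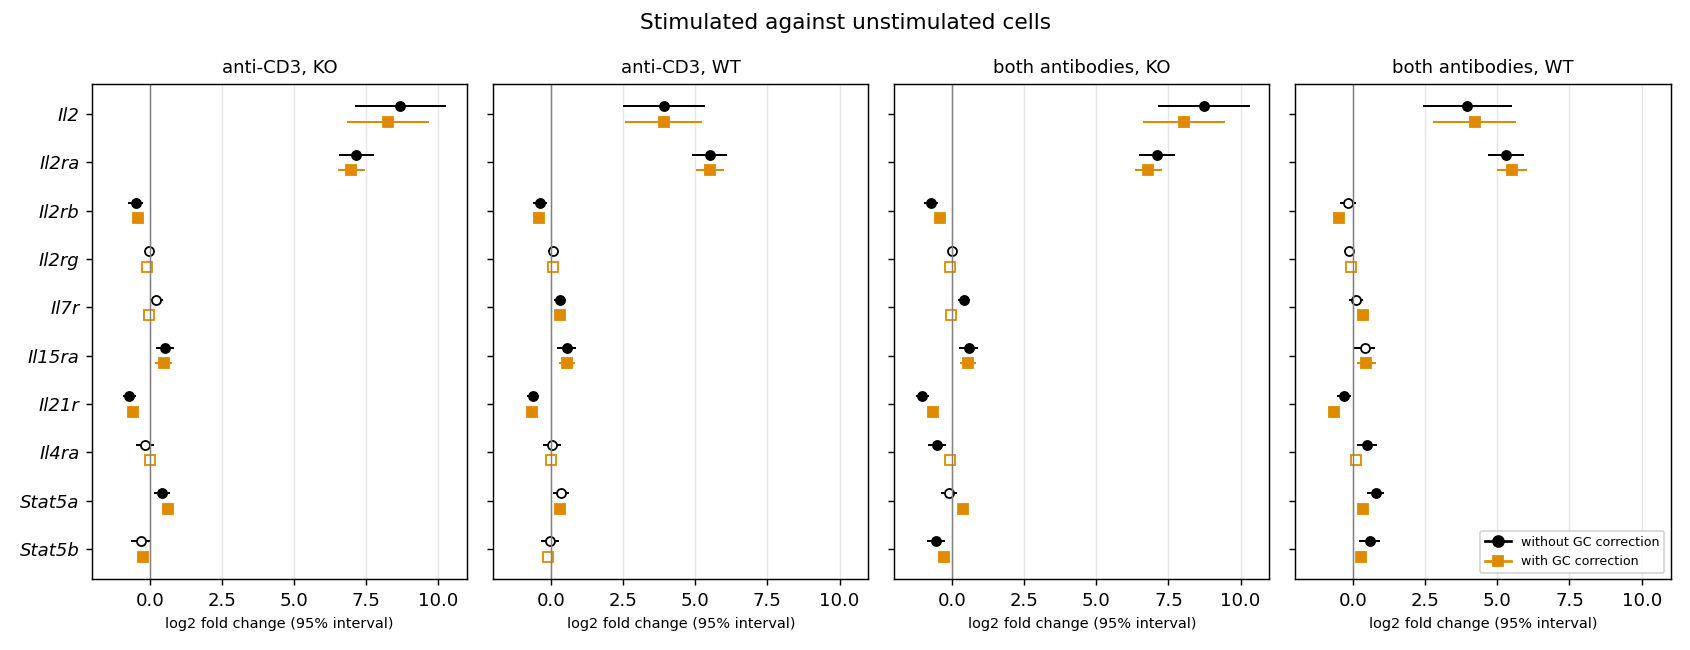
Log2 fold change of stimulated over unstimulated cells with its 95% interval (horizontal axis) for the 10 genes (rows) in KO and WT cells with anti-CD3 or both antibodies (panels), without GC correction (black circles) and with it (orange squares); filled symbols mark an adjusted p under 0.05. Il2 lies at 8.68 and 8.73 in KO and 3.91 and 3.96 in WT cells with anti-CD3 and both antibodies, and Il2rg lies at −0.03 and −0.01 in KO and 0.06 and −0.14 in WT cells.

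Adding anti-CD28 to anti-CD3 gave no called gene in either genotype in the edgeR fit of all 17 libraries, which is 0% of all genes. The unadjusted p was under 0.05 for 1460 genes in KO and 3506 in WT cells, DESeq2 called 0 and 488, and limma voom with quality weights 5550 and 6058. The both-antibody minus anti-CD3 log2 difference of Il2 was 0.05 in KO (−0.80 to 0.91) and 0.05 in WT cells (−1.06 to 1.151), and that of Il2ra −0.06 in KO (−0.49 to 0.36) and −0.20 in WT cells (−0.68 to 0.29). The intervals allow a difference of Il2 of up to 0.91 in KO and 1.151 in WT cells, so smaller effects of anti-CD28 were not detectable with this spread. Stat5a stood at −0.53 in KO (−0.81 to −0.25, adjusted p = 0.547) and 0.44 in WT cells (0.14 to 0.75, adjusted p = 0.153), and GC-corrected at −0.24 in KO (adjusted p = 0.83) and 0.02 in WT cells (adjusted p = 0.949). Other fits called members in WT cells. Without the 2 libraries of extreme GC trend, Il21r (0.29), Il4ra (0.45), Stat5a (0.43) and Stat5b (0.59, adjusted p = 0.00544) were called higher and Il2rg (−0.21) lower with anti-CD28. With only the groups compared these 5 and also Il2rb (0.21) and Il7r (−0.21) were called, by DESeq2 Il2rg and Stat5b, and by voom the same 7 as with only the groups compared. Without KO both-antibody replicate 1 Stat5a and Stat5b were called, and without KO both-antibody replicate 3 Il4ra, Stat5a and Stat5b. In KO cells voom called Il7r (0.17) higher and Il21r (−0.25), Il4ra (−0.27), Stat5a (−0.46) and Stat5b (−0.32) lower, and edgeR without KO both-antibody replicate 1 called Il21r (−0.40), Stat5a (−0.66) and Stat5b (−0.49) lower. GC-corrected, none of the 10 was called in either genotype, and Il2 and Il2ra were called in none of the fits tried.

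The difference between the genotypes in this step was called for 1 gene of all (0.00616%), which was none of the 10. Without the 2 libraries of extreme GC trend, Il21r (−0.51, adjusted p = 0.0393), Il4ra (−0.62, 0.0316), Stat5a (−0.82, 0.0316) and Stat5b (−0.63, 0.0338) were called lower in KO cells, and the same 4 were called by DESeq2, by voom, and by edgeR without KO both-antibody replicate 1 or without KO unstimulated replicate 2. DESeq2 also called Il2rg and Il7r higher, voom these and Il2rb lower, the fit without KO both-antibody replicate 1 Il7r higher and Il2rb lower, and the fit without a filter Il21r and Stat5a lower. GC-corrected, none was called (Il21r −0.09, Il4ra −0.17, Stat5a −0.26 and Stat5b −0.41).

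KO cells given anti-CD3 alone were also set against WT cells given both antibodies. In WT cells added anti-CD28 changed Il2 by 0.05 and Il2ra by −0.20, neither called. The comparison thus cannot show for them whether Cblb loss stands in for costimulation. With anti-CD3 in both genotypes, KO minus WT was 2.51 for Il2 and 1.496 for Il2ra. Il2 (log2 2.47, adjusted p = 0.0073), Il2ra (1.69, 0.000541) and Il15ra (0.66, 0.0235) were higher in KO cells and Il7r (−0.36, 0.0493) lower, 3 of the 10 against 8.96% of all genes and 1 against 2.55%. GC-corrected, 7 were called, against 22.4% of all genes, with Il2rb (0.34) and Stat5a (0.39) also higher and Stat5b (−0.44) also lower. Stat5b was likewise called lower by DESeq2, by voom, with only the groups compared, and without KO both-antibody replicate 1 or 3, and Il2rb and Stat5a were called higher by voom and with only the groups compared. Of the 4 uncorrected calls, that of Il2ra alone held in every fit tried. Without WT both-antibody replicate 2 or 3, the adjusted p of Il2 was 0.0852 and 0.116, and that of Il15ra 0.244 and 0.13. Without KO anti-CD3 replicate 3, Il15ra was at 0.122. The call of Il7r was lost in 10 of the 17 fits without 1 library (0.0573 to 0.277).

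Whether the response to stimulation differed between KO and WT cells was tested directly. For anti-CD3 the difference of the responses was 4.77 on the log2 scale for Il2 (SE 1.32, adjusted p = 0.171) and 1.66 for Il2ra (SE 0.42, adjusted p = 0.146), neither among the 9 genes called (0.0554% of all). The value of Il2 includes the unstimulated KO minus WT difference of −2.25, which was not called and rests on 6 KO and 13 WT reads. With anti-CD3 itself, KO minus WT was 2.51 for Il2. DESeq2 called both (0.00463 and 0.00602), as did edgeR without KO both-antibody replicate 1 (0.032 and 0.0372), and Il2ra was also called without KO both-antibody replicate 3 (0.023). Of the alternatives other than leaving out 1 library, 2 called Il2 and 2 called Il2ra, DESeq2 among them. For both antibodies 2 genes (Il2 and Il2ra) had a higher and 5 a lower called response in KO cells, against 18.3% and 19.2% of all genes. The unadjusted edgeR p of Il2 was 0.00255 for anti-CD3 and 0.00285 for both antibodies, and that of Il2ra 0.00111 and 0.000765. For these genes the calls differ through the adjustment over all genes, and do not show that the genotype matters only with both antibodies. GC-corrected, Il2ra (1.302, adjusted p = 0.0372) and Stat5b (−0.56, adjusted p = 0.00624) were called, against 13.8% of all genes.

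The other genes of the pathway were read from 7 lists. Their counts in KO against WT cells stand against 10.5% of all genes called higher and 4.8% lower with anti-CD3 (11.2% and 11.6% GC-corrected), and 9.84% and 6.3% with both antibodies (9.82% and 7.92% GC-corrected). Of the 6 ligands besides Il2 (Il4, Il7, Il9, Il15, Il21 and Tslp), Il15 alone passed the filter on low counts, at group means of 0.275 to 0.599 CPM, and it was not called in any of the 3 comparisons of KO with WT cells. The other 5 had at most 9 reads in any library, so changes in them were not detectable at this depth. Of 3 other receptor subunits (Il9r, Crlf2 and Il13ra1) Crlf2 alone was tested, a subunit of the receptor for TSLP, with a log2 difference of 0.51 in KO over WT cells with anti-CD3 (adjusted p = 0.026) and −0.42 GC-corrected (adjusted p = 0.305). Of the 4 Janus kinases 1 was called lower (against 4.8% of all genes) and 0 higher with anti-CD3, and 1 lower and 1 higher GC-corrected. The lower one was Jak1, which pairs with the ligand-specific subunits (−0.34, adjusted p = 0.00596, and −0.41 GC-corrected). Jak3, the kinase that binds the common gamma chain, stood at 0.78 (adjusted p = 0.0584) and at 0.23 GC-corrected (adjusted p = 0.0417). Of 5 other STAT genes 1 was called lower (against 4.8%) and 0 higher with anti-CD3, and 2 lower and 0 higher GC-corrected (against 11.6% lower). The gene lower by both fits was Stat4, which interleukin 12 activates (−0.32, adjusted p = 0.00927, and −0.25 GC-corrected).

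Among 6 feedback genes, 2 were called higher in KO cells with anti-CD3 and 0 lower, against 10.5% and 4.8% of all genes, and GC-corrected 3 higher and 1 lower, against 11.2% and 11.6%. The 2 genes called higher without correction, Cish and Socs2, are known STAT5 targets whose products dampen cytokine receptor signalling. Cish averaged 36.7 CPM in KO cells with anti-CD3 (30.3 to 46.8) and 6.03 CPM in WT cells (5.29 to 6.74), a log2 difference of 2.60 (SE 0.24, adjusted p = 1.37e-05). Its both-antibody means were 28.1 CPM for KO and 8.77 CPM for WT cells, a log2 difference of 1.68 (adjusted p = 0.00314). With anti-CD3, Socs2 had means of 2.65 CPM for KO and 0.551 CPM for WT cells (log2 2.24, adjusted p = 0.00729). With both antibodies the means were 2.46 CPM for KO and 0.246 CPM for WT cells (log2 3.27, adjusted p = 0.00875). The WT libraries there stood at 0.0519 and 0.441 CPM with at most 9 Socs2 reads each, so the size of this difference is uncertain. GC-corrected, the log2 values were 2.33 and 2.00 for Cish and 2.20 and 3.14 for Socs2, all called. With both antibodies 3 of the 6 were called higher and 1 lower, and GC-corrected 2 and 0.

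Of 16 genes for regulators of Il2 transcription, 5 were called higher and 2 lower in KO cells with anti-CD3, against 10.5% and 4.8% of all genes, and 5 and 3 GC-corrected, against 11.2% and 11.6%. Nfkb1, a subunit of NF-kappaB, had means of 507 CPM for KO and 343 CPM for WT cells (log2 0.56, adjusted p = 0.000818, and 0.47 GC-corrected). The AP-1 members Fosb and Fos stood at 1.29 (adjusted p = 0.00333) and 0.75 (adjusted p = 0.00614), while Nfatc3 was lower (−0.34, adjusted p = 0.0103). Fos was called lower in all 4 comparisons of stimulated with unstimulated cells, with anti-CD3 means of 9.35 CPM for KO and 5.56 CPM for WT cells, against 466 CPM in KO and 426 CPM in WT unstimulated cells. With both antibodies 1 of the 16 was called higher and 1 lower, and GC-corrected 2 and 3.

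Of 6 genes for regulators of Il7r transcription, 1 was called higher and 1 lower in KO cells with anti-CD3, against 10.5% and 4.8% of all genes, and 0 and 2 GC-corrected, against 11.2% and 11.6%. Gfi1, a repressor of Il7r, was higher (0.53, adjusted p = 0.0187), although 0.13 GC-corrected (adjusted p = 0.775), and Ets1, a T cell transcription factor, was lower (−0.22, adjusted p = 0.0416, and −0.24 GC-corrected). With both antibodies Klf2, a quiescence factor, was called lower (−0.87, adjusted p = 0.00259) and was −0.01 GC-corrected (adjusted p = 0.976).

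The genes whose group means most resembled those of Il2, Il2ra and Il7r were ranked by the root mean square difference of their centred log2 levels over the 6 groups, among 9935 or 9936 genes. For Il2ra they were the chemokine genes Ccl4 (0.184) and Ccl9 (0.244), the predicted gene Gm49339 (0.25), the chemokine gene Xcl1 (0.275) and Sema7a (0.483). For Il2 they were Gm49339 (0.456), Ifng, the gene of interferon gamma (0.507), Il2ra itself (0.578), Ccl4 (0.661) and Ccl9 (0.679). For Il7r they were Ccng2 (0.024), Zfp386 (0.042), 4930590J08Rik (0.058), Dpp4 (0.063) and Zfp260 (0.066), whose levels span less than those of Il2 and Il2ra, so that small differences are easier to reach. The 6 group means share libraries, depth and GC trend, so the ranking is a description.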

How the data were processed

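RNA-seq counts per gene in 17 libraries were analysed. The deposited values are whole-number counts that the authors made with STAR 2.5.2 and RSEM 1.3.0 on GRCm38 (mm10), per the submitters' processing notes; annotation, strand setting and rounding were not stated there. The 10 genes and all lists were chosen with earlier results of these data known. Genes were filtered with filterByExpr, totals scaled by TMM, and all 17 libraries fitted together in edgeR 4.0.16 (R 4.3.3; robust quasi-likelihood test, 13 contrasts, Benjamini-Hochberg adjustment over 16246 genes, threshold 0.05). CPM are on scaled totals. The biological coefficient of variation was 0.153. GC correction used loess offsets per library (span 0.3). Alternatives were DESeq2 1.42.0, voom with quality weights (limma 3.58.1), relative log expression scaling, other filters, only the groups compared, a replicate block, GC correction, leaving out the 2 libraries of extreme GC trend, and leaving out each library. Named genes are the 10, at most 4 per list with the smallest adjusted p in KO against WT cells with anti-CD3, and the 5 protein-coding genes most like Il2, Il2ra and Il7r. The feedback list is an exception, as its remaining genes were named after their values were seen. Replicates of a group differed beyond counting noise in all 16 pairs (chi-square per gene 4.03 to 629). On simulated data for KO against WT cells with anti-CD3, 88.5% of 200 genes changed 2-fold were called, and 6 unchanged genes of 16001 simulated. The simulation gave every gene the same spread, held no GC trend and changed only well-covered genes. These rates therefore need not hold for the real libraries. Pairing of the libraries by replicate number was not evident, though not excluded. Depth limits Il2 in unstimulated cells, where intervals cover counting error only.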

Additional observations from a re-analysis of the deposited data

Results flagged for a closer look

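For 7 of the 10 genes the response to both antibodies differed between KO and WT cells by the test of the difference itself (edgeR, difference of the log2 changes, KO minus WT), 2 with a higher and 5 with a lower response in KO cells, against 18.3% and 19.2% of all genes. The values were 4.772 for Il2 (adjusted p = 0.0128), 1.796 for Il2ra (0.00605), −0.537 for Il2rb (0.0229), −0.705 for Il21r (0.00455), −1.011 for Il4ra (0.00434), −0.889 for Stat5a (0.00437) and −1.128 for Stat5b (0.00375). With anti-CD3 alone Il2 and Il2ra had similar values, 4.766 and 1.662, at adjusted p of 0.171 and 0.146 but unadjusted p of 0.00255 and 0.00111. GC-corrected, Il2ra (1.302, adjusted p = 0.0372) and Stat5b (−0.56, adjusted p = 0.00624) were called, against 13.8% of all genes, while Il2 stood at 3.82 (0.0653), Il2rb at 0.08, Il21r at −0.02, Il4ra at −0.17 and Stat5a at 0.05. The part of the GC trend in these differences was not tested. Il2 lost its call without KO unstimulated replicate 2 (0.102) or WT unstimulated replicate 2 (0.206), and Il2rb without WT both-antibody replicate 2 (0.0903), KO unstimulated replicate 2 (0.0578) or WT unstimulated replicate 1 (0.056). Il2 also lost its call in 4 of the alternatives other than leaving out 1 library, GC correction among them. Without the libraries of extreme GC trend, which are replicate 3 of KO cells with both antibodies and replicate 2 of KO unstimulated cells, the same fit gave 3.49 for Il2 (0.148), 1.18 for Il2ra (0.0431), −0.39 for Il2rb (0.0859), −0.55 for Il21r (0.00953), −0.68 for Il4ra (0.00419), −0.68 for Stat5a (0.00843) and −0.84 for Stat5b (0.00278). Each difference of responses of Il2 includes the unstimulated KO minus WT difference of −2.25 in the main fit. That difference was not called and rests on 6 KO and 13 WT reads.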

How the results depend on the processing

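Over the tests of the 10 genes under all alternatives, 3045 kept direction and side of the threshold, 144 lost their call, 116 gained it and 74 changed sign, and the causes were not tested. Depth limits Il2 before stimulation, and the pair of WT both-antibody libraries limits the comparisons that use it. Pairing by replicate number was not evident. Of same-numbered pairs 11 of 40 correlated above 0.1 (median 0.04), and of different-numbered pairs 17 of 80 (median −0.005). Of 17 libraries, 6 correlated best with their own number. These values cannot exclude that same-numbered libraries came from the same mouse. With a replicate block, Il21r in WT cells with both antibodies (−0.33, adjusted p = 0.0557) and Il7r in KO cells with anti-CD3 against WT cells with both antibodies (−0.36, adjusted p = 0.064) lost their calls, the added-anti-CD28 values of Il2 were −0.07 in KO and −0.203 in WT cells, and the difference of that step between genotypes had 0 called genes (4851 at an unadjusted p under 0.05).

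With GC correction these log2 values changed sign. KO against WT cells gave 0.075 for Il2ra and 0.003 for Il2rg without stimulation, −0.081 for Stat5b with anti-CD3, and −0.001 for Il2rg, 0.004 for Il21r, 0.118 for Il4ra and 0.153 for Stat5a with both antibodies. In KO cells stimulation gave −0.044 for Il7r and 0.015 for Il4ra with anti-CD3, and −0.03 for Il7r and 0.384 for Stat5a with both antibodies. Added anti-CD28 gave −0.22 for Il2 and 0.002 for Il2rb in KO cells, and −0.06 for Il2rb and 0.031 for Il7r in WT cells. KO cells with anti-CD3 against WT cells with both antibodies gave −0.038 for Il2rg. The difference of responses gave 0.018 for Il2rb, 0.064 for Il21r and 0.002 for Il4ra with anti-CD3, 0.08 for Il2rb, −0.004 for Il2rg, −0.379 for Il7r and 0.045 for Stat5a with both antibodies, and −0.524 for Il2, −0.167 for Il2ra, 0.062 for Il2rb and −0.017 for Il7r for added anti-CD28.

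Limma voom changed the sign of Il2rg in KO cells with anti-CD3 (0.001) and both antibodies (0.071), of Il4ra in WT cells with anti-CD3 (−0.009), of Il21r in KO cells with anti-CD3 against WT cells with both antibodies (−0.026) and of the anti-CD3 difference of responses of Il15ra (0.134). Without a filter the added-anti-CD28 difference of Il2 between genotypes was −0.014. With only the groups compared, Il2ra in unstimulated KO against WT cells was 0.015. Without the 2 libraries of extreme GC trend that value was 0.164, Stat5a in KO cells with both antibodies 0.088, added anti-CD28 in KO cells −0.414 for Il2 and −0.024 for Il15ra, and its difference between genotypes −0.442 for Il2 and −0.115 for Il2ra.

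Leaving out 1 library, signs changed within these ranges: KO against WT unstimulated, −0.396 to 0.212 for Il2ra and −0.049 to 0.002 for Il2rg; anti-CD3, −0.308 to 0.007 for Il4ra in KO, and −0.048 to 0.092 for Il4ra and −0.079 to 0.032 for Stat5b in WT cells. With both antibodies in KO cells they were −0.048 to 0.016 for Il2rg and −0.239 to 0.013 for Stat5a. Added anti-CD28 gave −0.428 to 0.432 for Il2, −0.34 to 0.112 for Il2ra, −0.004 to 0.048 for Il2rg and −0.039 to 0.156 for Il15ra in KO cells, and −0.142 to 0.329 for Il2 in WT cells. KO cells with anti-CD3 against WT cells with both antibodies gave −0.057 to 0.095 for Il21r. The differences of responses gave −0.197 to 0.15 for Il15ra and −0.024 to 0.175 for Stat5a with anti-CD3, and −0.474 to 0.388 for Il2 and −0.141 to 0.31 for Il2ra for added anti-CD28.

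Numbers of called genes moved by over 1.5 times as follows. For KO against WT cells, the 4134 of unstimulated cells were 929 with GC correction. The 2492 with anti-CD3 were 5742 by voom, 5262 with only the groups compared and 4229 without the 2 libraries. The 2621 with both antibodies were 9370 by voom, 1526 without the 2 libraries and 0 with only the groups compared (3037 at an unadjusted p under 0.05), where the adjusted p was 0.23 for Il2 and 0.215 for Il2ra. For both antibodies against none, the 7379 of KO cells were 3990 with only the groups compared and 4734 without the 2 libraries, and the 5538 of WT cells were 8425 by voom. For added anti-CD28, the 0 of KO cells were 5550 by voom, and the 0 of WT cells 488 by DESeq2, 4 with GC correction, 6058 by voom, 24 without a filter, 4780 with only the groups compared and 2932 without the 2 libraries. For KO cells with anti-CD3 against WT cells with both antibodies, the 1870 were 3631 with GC correction, 5924 by voom, 4725 with only the groups compared and 3388 without the 2 libraries.

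For the difference of responses to anti-CD3, the 9 were 216 by DESeq2, 402 with GC correction, 918 by voom, 63 without a filter, 475 with only the groups compared and 136 without the 2 libraries. The 6089 for both antibodies were 2241 with GC correction and 3773 without the 2 libraries. The 1 for added anti-CD28 was 2380 by DESeq2, 9 with GC correction, 7681 by voom, 326 without a filter, 1067 without the 2 libraries, and 0 with a filter of 1 CPM (4588 at an unadjusted p under 0.05), relative log expression scaling (4801) and only the groups compared (4921). Leaving out 1 library, the counts ranged over 348 to 5465 for unstimulated KO against WT cells, 853 to 3528 with anti-CD3, 11 to 5647 with both antibodies, 2712 to 6461 for both antibodies against none in WT cells, 0 to 628 for added anti-CD28 in KO and 0 to 1434 in WT cells, 323 to 2811 for KO cells with anti-CD3 against WT cells with both antibodies, and 0 to 366, 3815 to 7382 and 0 to 4753 for the differences of responses to anti-CD3, both antibodies and added anti-CD28.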
